A study of Mus musculus with 72 samples.

Results

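Tumor-draining lymph nodes (TDLN) taken at study day 16 were compared between mice given TS/CYTO and mice given CYTO alone, the pair of arms that differ by TS. The comparison rests on 6 of the 72 libraries of the study, 3 from TS/CYTO mice and 3 from CYTO mice, chosen by the arm, tissue and day in their column names. All were BALB/c mice carrying CT26, a colon carcinoma line of that strain, and sex and age are not given in the sources used here. The labels write CYTO and TS without spelling them out, so the names are kept here as they stand. Isotype mice served as the control arm, and nodes of PD1, PD1/CYTO and TS/PD1/CYTO mice of the same day, all labelled batch 2 like the others, complete the 18 libraries of 6 arms used to estimate the spread. Each library came from a separate mouse. Values are the deposited log2(TPM + 1), where TPM is a length-normalized share of transcripts, and differences below are TS/CYTO minus CYTO on that scale unless another pair is named. The lowest deposited value, 0.01, is called the floor and means that a gene is listed at a TPM of about 0.

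A draining node collects antigen and cells from the tumor through afferent lymph, and it holds mostly T and B lymphocytes with stromal cells, dendritic cells and macrophages. Neutrophils make their granule proteins in steps: the enzymes of primary granules (MPO, ELANE, PRTN3, CTSG) are transcribed in promyelocytes of the marrow, those of secondary granules (CAMP, LTF, LCN2) later, and the alarmins S100A8 and S100A9 are abundant in mature cells. Transcripts of primary granule enzymes therefore mark immature granulocytes, which are sparse in a resting node. Cytosolic chaperones of the heat shock families and the chaperones of the endoplasmic reticulum fold proteins in all cells and are raised by protein stress and by growth. In bulk tissue, a lower value of a cell type's genes cannot be told apart from fewer cells of that type or less RNA per cell, and the same holds for a higher one.

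Node markers were present in all 6 libraries. GLYCAM1, a mucin of high endothelial venules, lay between 11.67 and 13.03, the chemokine CCL19 between 8.62 and 8.94 and CD3E of T cells between 6.99 and 7.38. Of 12480 genes tested over the 18 libraries with limma, 0 differed at an adjusted p under 5%, so 0% were called, and the smallest adjusted p was 0.0614. At an unadjusted p under 0.05 there were 58 genes (0.465%), 34 higher (0.272%) and 24 lower (0.192%) in TS/CYTO. All 3 TS/CYTO values lay above all 3 CYTO values for 847 genes (6.79%) and below them for 379 (3.04%), and the median difference over all tested genes was 0. Among these, 24 genes were higher by at least 1 on the log2 scale and 24 lower by at least 1. A fit on the 6 libraries alone called 2 of 12112 genes (0.0165%), with 587 (4.85%) at an unadjusted p under 0.05, and a fit on all 36 nodes of both days called 6 of 12596 (0.0476%).

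Features of the libraries bear on all that follows. In 3 libraries of other arms (1 PD1, 1 PD1/CYTO and 1 TS/PD1/CYTO) the median correlation with the remaining day 16 nodes was 0.795, 0.775 and 0.740, while the other 15 libraries had 0.962 to 0.988. Without these 3, limma tested 12275 genes and called 1 (0.00815%), HSPH1, with 472 genes higher (3.85%) and 294 lower (2.4%) at an unadjusted p under 0.05. That fit was added after the data were seen, and its values are named below as those of the 15 libraries. The RNA integrity number was 7.7, 8.1 and 7.7 in the TS/CYTO libraries and 7.5, 6.7 and 6.4 in the CYTO libraries (7.83 ± 0.231 against 6.87 ± 0.569, SD, n = 3 each), a difference of 0.967. The groups did not overlap, and the exact two-sided permutation p = 0.1 is the smallest that 3 against 3 mice allow. Isotype nodes had 8.3, 7.9 and 7.9. Tumors measured 255 ± 138 mm3 in TS/CYTO and 374 ± 183 mm3 in CYTO mice (SD, n = 3 each), which is -0.57 on the log2 scale (two-sided exact permutation test, p = 0.4).

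Granulocyte genes filled most of the top of the comparison by p. The immature granulocyte list had 12 genes, of which 9 were in the table and 8 were tested. In 7 of the 8 the TS/CYTO values all lay above the CYTO values, against 6.79% of all genes, with a median difference of 2.42. That median was 0.53 under a stricter filter, which tests fewer of the members, 4.92 with a pseudocount of 0.1 and 3.33 with array weights. Of the 8, 2 passed the filter on low values only through the TS/CYTO libraries and had to be higher there, so the count is a description. The 10 higher genes that the naming rule filled by smallest p, none of them past 5%, were CD177, CTSG, MPO, CAMP, S100A9, NFE2, MS4A3, S100A8, ELANE and SNORA31. All but the small nucleolar RNA SNORA31 are genes of the granulocyte line or, for NFE2, of megakaryocytes and myeloid progenitors. NFE2 passed the filter on low values only through the TS/CYTO libraries and had to be higher there.

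CD177, a surface glycoprotein of neutrophils (GRCm38 chr7:24743983-24760311, minus strand), was listed at the floor in all 3 CYTO libraries and at 3.21, 1.96 and 2.01 in TS/CYTO. Among day 16 Isotype nodes it was at 1.21 in 1 mouse and at the floor in the other two. Its limma adjusted p of 0.0614 was the smallest of the table (difference 2.38, SE 0.33). CTSG, cathepsin G (chr14:56099881-56102574, minus strand), was at 0.01, 0.07 and 0.14 in CYTO and at 3.62, 2.82 and 1.67 in TS/CYTO. Every TS/CYTO library stood clear of the CYTO libraries, by a mean of 2.63 (SE 0.40, limma adjusted p = 0.0751). MPO, myeloperoxidase (chr11:87793581-87804413, plus strand), was at 0.01, 0.54 and 0.33 in CYTO and at 4.86, 4.19 and 2.77 in TS/CYTO. The lowest TS/CYTO mouse was the same for CTSG and MPO, mouse 30, and mouse 28 was the highest for both. For MPO the difference was 3.65 (SE 0.60, limma adjusted p = 0.114).

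ELANE, neutrophil elastase, ran at 0.01, 0.53 and 0.01 in CYTO against 4.38, 3.78 and 1.63 in TS/CYTO, and its neighbor in function PRTN3, proteinase 3, at 1.22, 2.68 and 1.94 against 5.09, 4.51 and 2.88. Neither pair of groups overlapped, and mouse 30 was again the lowest TS/CYTO mouse. The limma adjusted p was 0.473 for ELANE (difference 3.08, SE 0.66) and 1 for PRTN3 (difference 2.21, SE 1.01), and without the 3 atypical libraries it was 0.23 and 0.313. MS4A3, a four-span protein of myeloid progenitors, was at the floor in all 3 CYTO libraries and at 3.03, 2.14 and 0.73 in TS/CYTO. CAMP, the precursor of the cathelicidin peptide (chr9:109847379-109849617, minus strand), was at 0.01, 2.06 and 0.01 in CYTO against 6.71, 5.15 and 5.39 in TS/CYTO. The 3 TS/CYTO mice were above the CYTO mouse that did carry CAMP, mouse 11, which was also the CYTO mouse with the most MPO, ELANE and PRTN3. The CAMP difference of 5.06 (SE 0.85) had a limma adjusted p of 0.114, and in the 36 nodes of both days fitted at once 0.01.

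The secondary granule genes other than CAMP differed less. LTF, lactoferrin, was at 5.24, 6.16 and 5.30 in CYTO and at 6.07, 5.74 and 5.93 in TS/CYTO, and the groups overlapped (difference 0.35, SE 1.16). LCN2, lipocalin 2, was at 5.99, 6.06 and 5.99 against 6.60, 7.26 and 6.33, with no overlap and a difference of 0.72 (SE 0.68, limma adjusted p = 1). Epithelial cells also make both proteins. In the CYTO libraries they were the highest of the list, whose summed TPM was 100.7, 145.8 and 104.2 in CYTO, 366.8, 300.9 and 197.5 in TS/CYTO and 78.2, 73.9 and 115.8 in Isotype. Isotype mice 5 and 6, with MPO and CAMP at the floor, had LTF at 5.33 and 5.80.

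S100A8 and S100A9, the paired calcium-binding alarmins that sit on chromosome 3, were the most abundant granulocyte genes. S100A8 was at 2.56, 5.27 and 3.52 in CYTO and at 9.34, 7.75 and 8.44 in TS/CYTO, and S100A9 at 3.87, 6.10 and 4.47 against 10.02, 8.47 and 8.77. The lowest TS/CYTO library exceeded the highest CYTO library by over 2 log2 steps for both. On the TPM scale the TS/CYTO mean of S100A8 was 22.8 times the CYTO mean and that of S100A9 17.8 times (limma adjusted p = 0.26 for each). In the mature neutrophil list, 4 of 8 tested genes had all TS/CYTO values above all CYTO values, against 6.79% of all genes. The median difference was 0.85 (1.64 under the stricter filter), and 1 of the 8, MMP8, passed the filter on low values only through TS/CYTO. The others of the 4 were the collagenase MMP8, at the floor in CYTO and at 2.16, 0.18 and 1.43 in TS/CYTO, and the gelatinase MMP9, at 2.01, 1.86 and 2.30 against 2.91, 3.02 and 3.10. CSF3R, the G-CSF receptor on neutrophils and their precursors, overlapped between the groups at 2.50, 2.16 and 2.81 against 3.60, 2.68 and 3.42, a difference of 0.74 (SE 0.55). The list's summed TPM was 132.6, 241.1 and 107.5 in CYTO and 1743, 733 and 852 in TS/CYTO.

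**Figure D1:**
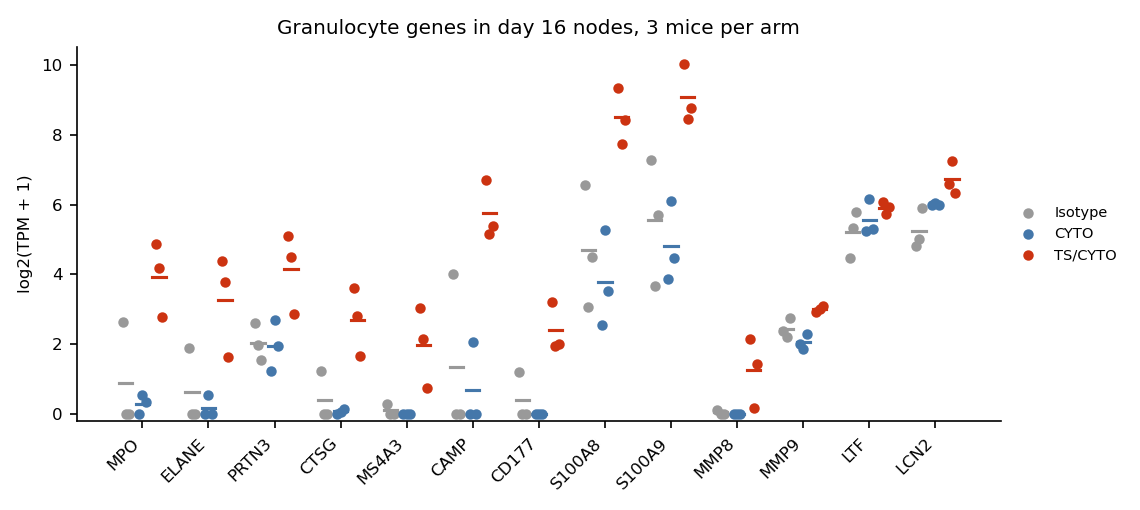
Log2(TPM + 1) of 13 granulocyte genes in day 16 nodes of Isotype, CYTO and TS/CYTO mice, 1 point per mouse with a bar at the mean of 3. The primary granule genes, CAMP, CD177, S100A8 and S100A9 sit higher in all 3 TS/CYTO mice than in all 3 CYTO mice, LTF overlaps between these arms, and 1 Isotype mouse lies between them for CAMP and MPO.

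Isotype nodes were not uniform for these genes. Isotype mouse 4 had CAMP at 4.02, MPO at 2.64, ELANE at 1.90, CTSG at 1.22, S100A8 at 6.57 and S100A9 at 7.29, whereas MPO, CAMP and ELANE were at the floor in Isotype mice 5 and 6. That Isotype mouse lay below the TS/CYTO mice for MPO, CAMP, S100A8 and S100A9 but above the lowest of them for ELANE. Against Isotype, TS/CYTO was higher by 1.98 for CD177 and 2.29 for CTSG, each with a limma adjusted p of 0.214, and by 4.40 for CAMP (0.357). Leaving out Isotype mouse 4, the control mouse with the most MPO and CAMP, brought CAMP, MPO, CD177 and CTSG past 5% (limma adjusted p = 0.00124 for CAMP). Leaving out Isotype mouse 5 or 6 instead called 0 genes, so these calls rest on dropping the control mouse that had these transcripts. CYTO minus Isotype gave a median of -0.22 over the immature granulocyte list. High sums of that list also occurred in PD1 nodes, which had no TS. Its summed TPM there was 563, 85.5 and 92.4 at day 16, the 563 in the atypical library, and 948, 123 and 629 at day 23. A sum follows its most abundant members, which were LTF and LCN2 in CYTO nodes. As a mean of log2(TPM + 1) the list was at 2.48, 1.39 and 1.39 in day 16 PD1 nodes, below TS/CYTO at 4.64, 4.02 and 3.04. In day 23 PD1 nodes that mean was 6.25, 3.24 and 5.06. The mature neutrophil sums of these day 23 nodes were 3678, 471 and 2725. PD1/CYTO nodes of day 16 were low, with immature granulocyte sums of 4.30, 19.6 and 63.7, the 4.30 in the atypical library. The comparisons with Isotype share their TS/CYTO or CYTO libraries with the main one and are given side by side only.

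PRG2, PPBP and FPR2 were picked after their values were seen. PRG2, the major basic protein of eosinophil granules, was at 0.67, 2.21 and 1.04 in CYTO against 6.25, 2.78 and 3.38 in TS/CYTO, a difference of 2.83 (SE 0.87, limma adjusted p = 1), and mouse 28 was far above the other two. PPBP, a chemokine of platelets and megakaryocytes, was at 0.01, 0.01 and 2.13 against 2.46, 3.11 and 3.21. FPR2, a formyl peptide receptor of neutrophils and monocytes, was at 0.75, 1.15 and 0.23 against 3.32, 2.24 and 2.64. None of these 3 overlapped between the arms. IL5RA, the other eosinophil gene tested, differed by -0.10. Of 6 megakaryocyte and platelet genes 4 had a positive difference and 2 a negative one, ITGA2B at -0.15 and GP1BA at -0.09, with a median of 0.295. Of these 6 PPBP alone was free of overlap. Erythroid genes, which blood in the sample would bring, had a summed TPM of 41.0 to 43.7 in CYTO and 36.6 to 49.6 in TS/CYTO over the 12 listed members in the table. Of these 12, 7 were at the floor in all 6 libraries and 5 were tested. The sum therefore cannot show whether blood differed between the arms, which was not tested. The monocyte list had a median difference of 0.01. Of its 9 genes 0 were higher and 1 lower without overlap, against 6.79% and 3.04% of all genes.

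Cytosolic chaperones were higher in TS/CYTO nodes by smaller and more even steps. Of 13 heat shock chaperone genes tested, 8 had all TS/CYTO values above all CYTO values and 0 below, against 6.79% and 3.04% of all genes, and the median difference was 0.35. In the 15 libraries 9 of the 13 reached an unadjusted p under 0.05, against 3.85% of all genes. The summed TPM of the list was 2376, 2685 and 2417 in CYTO, 3270 to 3988 in TS/CYTO and 2587 to 3025 in Isotype. It was 6129, 3275 and 3327 in PD1/CYTO nodes, which had no TS, the 6129 in the atypical library. The 3275 and 3327 reached the low end of the TS/CYTO range. PD1 nodes had 2196, 2957 and 3149 and TS/PD1/CYTO nodes 3726, 3411 and 3037, with the 2196 and the 3726 in atypical libraries. As a mean of log2(TPM + 1) the list overlapped, at 5.97, 6.15 and 5.94 in CYTO and 6.08, 6.84 and 6.20 in TS/CYTO. HSPH1, the Hsp110 nucleotide exchange factor that drives Hsp70 (chr5:149614287-149636376, minus strand), was at 4.95, 5.22 and 5.13 in CYTO and at 6.11, 6.18 and 5.95 in TS/CYTO. The gap between the groups, 5.22 to 5.95, was wider than the range within either. The difference was 0.98, from a mean TPM of 33.4 to 66.8. In the 18 libraries its limma adjusted p was 1 (SE 0.30, unadjusted p = 0.00601), and in the 15 libraries it passed 5% with an adjusted p of 0.00658 (SE 0.10). Isotype nodes had HSPH1 at 5.33, 5.39 and 5.11, below all TS/CYTO values. RNA integrity numbers did not overlap between TS/CYTO and CYTO, so their part in the HSPH1 difference cannot be told apart from that of the arm.

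HSPA8, the constitutive Hsc70 (chr9:40800984-40810087, plus strand), was at 9.56, 9.79 and 9.62 in CYTO and at 10.31, 10.57 and 10.22 in TS/CYTO. DNAJA1, an Hsp40 partner of Hsc70, was at 7.02, 7.15 and 7.12 against 7.78, 7.63 and 7.63. DNAJB1, another Hsp40, was at 4.42, 4.30 and 4.36 against 5.00, 4.92 and 4.76. In all 3 genes the 3 TS/CYTO mice lay above the 3 CYTO mice, by 0.71, 0.58 and 0.53, and in the 15 libraries the limma adjusted p was 0.0622, 0.0814 and 0.0814. HSP90AA1 and HSP90AB1, the inducible and constitutive cytosolic Hsp90, and HSPE1, the mitochondrial Hsp10, were higher without overlap by 0.42, 0.35 and 0.23, and HSPA5, described with the stress genes, was the last of the 8. The other members overlapped between the arms: the stress-inducible Hsp70 genes HSPA1A and HSPA1B differed by -0.18 and -0.13, the small heat shock protein HSPB1 by 0.09, the cochaperone BAG3 by 0.17 and the mitochondrial Hsp60 HSPD1 by 0.28. STIP1, CHORDC1 and DYNLL1, named after their values were seen, were higher without overlap by 0.52, 0.57 and 0.46. STIP1 and CHORDC1 encode cochaperones of Hsp90, and DYNLL1 is a dynein light chain. With the RNA integrity number as a covariate, which left out 1 library without a number, the differences were 0.73 for HSPH1, 0.55 for HSPA8, 0.57 for DNAJA1 and 0.41 for DNAJB1, but 0.13 for HSP90AA1, 0.14 for HSP90AB1, 0.082 for HSPE1 and 0.35 for HSPA5. In the 15 libraries with that covariate the last 4 were at 0.42, 0.38, 0.27 and 0.47.

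**Figure D2:**
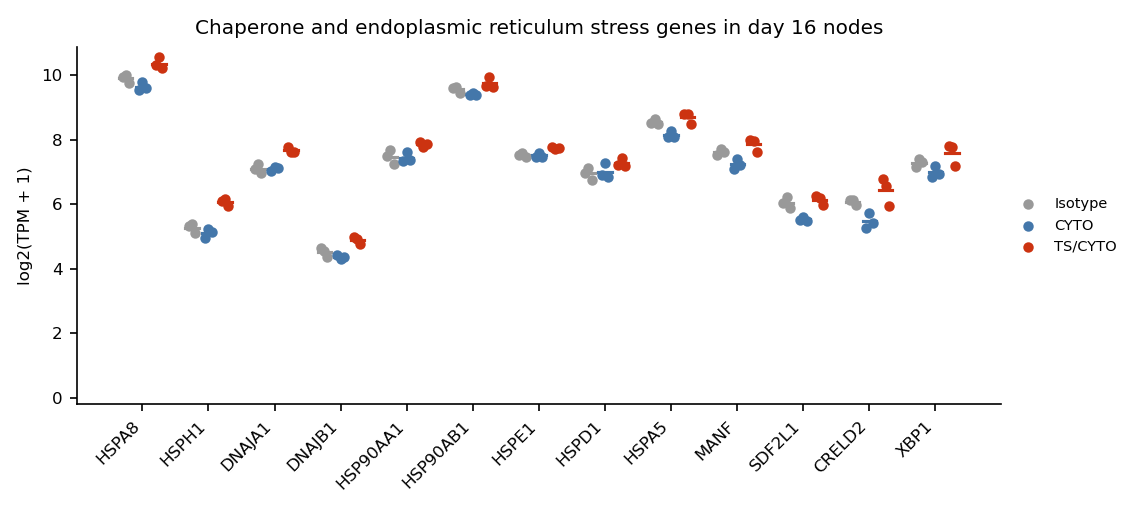
Log2(TPM + 1) of 13 chaperone and endoplasmic reticulum stress genes in day 16 nodes of Isotype, CYTO and TS/CYTO mice, 1 point per mouse with a bar at the mean of 3. HSPH1, HSPA8, DNAJA1 and DNAJB1 are higher in TS/CYTO than in both other arms, whereas for MANF and HSPA5 the CYTO mice are the lowest of the 3 arms.

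Heat shock and stress response elements are the known control sites of chaperone genes. Of the heat shock and stress genes higher without overlap, 5 promoters were picked for print because they hold such letters, so the selection says nothing of how often they do. Sequences are the 250 bases before the gene start from RefSeq (GRCm38.p6), written in the direction of the gene, with matches in capitals. The letters searched on both strands were the heat shock element cores GAANNTTC and TTCNNGAA, which overlap when units repeat, and the endoplasmic reticulum stress element, which is CCAAT and CCACG with 9 bases between. Of 32851 promoters in the table, 6.69% held GAANNTTC, 7.17% held TTCNNGAA and 0.113% held the stress element. HSPH1 (chr5:149636337-149636586, minus strand) held TTCTCGAA 33 bases before the start, DNAJA1 (chr4:40722218-40722467, plus strand) GAAAATTC, and HSPE1 (chr1:55087898-55088147, plus strand) 3 overlapping matches. HSPA5 (chr2:34771840-34772089, plus strand) and CRELD2 (chr15:88819396-88819645, plus strand) held the stress element, in CRELD2 on the other strand. The GENCODE gene spans, used for the other positions printed here, differ from the RefSeq starts for some genes. DNAJA1 starts at 40722150 in GENCODE, so its window lies inside that span, and the HSPH1 and HSPA5 matches lie inside theirs. Another RefSeq start of HSPH1 had the same match 54 bases before it.
HSPH1: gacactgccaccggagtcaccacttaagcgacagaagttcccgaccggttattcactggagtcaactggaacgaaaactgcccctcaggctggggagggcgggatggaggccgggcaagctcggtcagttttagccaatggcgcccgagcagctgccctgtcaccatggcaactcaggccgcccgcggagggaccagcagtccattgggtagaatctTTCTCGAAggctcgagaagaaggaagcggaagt
DNAJA1: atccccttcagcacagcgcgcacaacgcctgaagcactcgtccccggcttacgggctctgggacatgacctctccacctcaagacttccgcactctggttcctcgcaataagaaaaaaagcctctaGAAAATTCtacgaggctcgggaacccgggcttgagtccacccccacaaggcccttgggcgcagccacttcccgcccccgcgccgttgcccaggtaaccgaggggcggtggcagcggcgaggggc
HSPE1: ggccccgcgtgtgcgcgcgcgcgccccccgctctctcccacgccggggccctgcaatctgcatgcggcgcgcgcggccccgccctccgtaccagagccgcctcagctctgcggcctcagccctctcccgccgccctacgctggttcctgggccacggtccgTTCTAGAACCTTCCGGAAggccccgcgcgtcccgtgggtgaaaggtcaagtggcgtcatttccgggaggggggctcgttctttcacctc
HSPA5: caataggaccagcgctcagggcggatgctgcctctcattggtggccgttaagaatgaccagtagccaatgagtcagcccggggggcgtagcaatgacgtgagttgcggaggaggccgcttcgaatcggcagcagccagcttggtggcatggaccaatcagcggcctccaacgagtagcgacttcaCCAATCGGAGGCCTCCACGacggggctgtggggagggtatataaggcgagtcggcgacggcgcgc
CRELD2: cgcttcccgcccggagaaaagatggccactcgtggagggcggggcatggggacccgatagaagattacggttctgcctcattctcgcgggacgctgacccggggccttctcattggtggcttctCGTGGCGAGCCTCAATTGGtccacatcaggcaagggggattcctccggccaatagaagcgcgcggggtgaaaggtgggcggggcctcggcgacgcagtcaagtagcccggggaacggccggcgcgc

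Of the 13 heat shock genes 10 had a promoter in the table. GAANNTTC was found in 6 of them (DNAJA1, HSPA1A, HSPA1B, HSPB1, HSPD1 and HSPE1) and TTCNNGAA in 3 (HSPD1, HSPE1 and HSPH1). HSPA1A and HSPA1B thus carry the core in the window while their levels overlapped between the arms. Of the 17 genes of the unfolded and integrated stress list 16 had a promoter, and the stress element was found in 2, HSPA5 and CRELD2. DNAJB1, higher without overlap, had a promoter with none of these letters. A match describes these letters only, and binding was not measured.

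Genes of the unfolded protein and integrated stress responses were higher in TS/CYTO than in CYTO, by smaller steps and with Isotype nodes also above CYTO for several. Of 17 tested, 16 had a positive difference, 10 had all TS/CYTO values above all CYTO values and 1, DDIT4, had all below, against 6.79% and 3.04% of all genes. The median was 0.28 (0.45 with log2 tumor volume as a covariate). HSPA5, the reticulum Hsp70 BiP, was at 8.08, 8.28 and 8.09 in CYTO and at 8.80, 8.79 and 8.50 in TS/CYTO. CRELD2, a secreted stress protein, was at 5.27, 5.73 and 5.41 against 6.79, 6.58 and 5.94. MANF, a stress-induced secreted factor, was at 7.09, 7.41 and 7.22 against 8.0, 7.98 and 7.64. No pair overlapped, and mouse 30 was the lowest TS/CYTO mouse in all 3. The differences were 0.55, 0.97 and 0.63, and the limma adjusted p was 1 for each (0.252, 0.668 and 0.385 in the 15 libraries). In Isotype nodes HSPA5 was at 8.52, 8.65 and 8.49, MANF at 7.53, 7.73 and 7.61 and CRELD2 at 6.14, 6.14 and 5.97, between the 2 arms or within TS/CYTO. SDF2L1, a partner of BiP, differed by 0.62, DNAJB9 by 0.42 and ATF4, the factor of the integrated stress response, by 0.31, without overlap. XBP1, the splice-activated factor, overlapped, with 7.20 in a CYTO mouse and 7.19 in a TS/CYTO mouse (difference 0.59). With the RNA integrity number as a covariate the median of the list was 0.11.

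Secretory cells were measured beside these genes, since plasma cells carry high levels of reticulum chaperones. All 13 plasma cell genes had a positive difference, with 3 free of overlap, against 6.79% of all genes, and a median of 0.50. The median was 0.86 with array weights and 0.20 in the 15 libraries with the RNA integrity number as a covariate. MZB1, an immunoglobulin chaperone of B and plasma cells, was at 6.87, 7.53 and 7.14 in CYTO and at 8.91, 8.0 and 7.84 in TS/CYTO. IGHG1, the constant region of IgG1, was at 10.11, 11.37 and 10.88 against 12.43, 11.61 and 12.27. The groups did not overlap in either gene, and mouse 28 was the highest in both. The limma adjusted p was 1 for both differences, 1.07 for MZB1 (SE 2.10) and 1.32 for IGHG1 (SE 2.56). DERL3 and TXNDC5, which help to clear or fold proteins in the reticulum, differed by 0.98 and 0.36 without overlap, while JCHAIN, the joining chain of IgA and IgM, differed by 0.91 with overlap. The summed TPM of the plasma cell list ran from 1073 to 1662 in CYTO and from 1781 to 3174 in TS/CYTO, and the part of plasma cells in the chaperone values was not tested. In Isotype MZB1 was at 8.01, 8.25 and 8.06, above the CYTO mice.

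Fewer genes were lower in TS/CYTO, and none passed 5%. The rule filled the falls by smallest p with MND1, ZFP36L2, SNORA44, MCTP1, TFB2M, UPK3A, NR1H4, CXCL17, SAMD4A and DYX1C1. MND1, a meiotic recombination factor, was at 4.53, 4.42 and 5.19 in CYTO and at 2.53, 2.92 and 2.82 in TS/CYTO, with 2.03, 2.27 and 2.24 in Isotype. The CYTO arm stood apart from both others, and the difference was -1.96 (SE 0.55, limma adjusted p = 1). ZFP36L2, a protein that binds AU-rich RNA and promotes its decay (chr17:84183931-84187947, minus strand), was at 7.18, 7.46 and 7.58 against 6.59, 6.73 and 6.63, a difference of -0.76 (SE 0.22). Isotype nodes had 6.73, 6.76 and 6.95, closer to TS/CYTO than to CYTO. SNORA44, a small nucleolar RNA (chr4:132309941-132310069, plus strand), was at 4.29, 3.83 and 3.53 in CYTO and listed at the floor in all 3 TS/CYTO libraries. Isotype nodes had it at 3.42, 0.01 and 2.78, so the control arm held both states. SAMD4A, an RNA-binding repressor of translation, was at 1.86, 1.42 and 1.86 against 0.01, 0.53 and 0.01 (difference -1.53, limma adjusted p = 1, and 0.0814 in the 15 libraries).

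The other falls of the rule were low in level or small. UPK3A, a urothelial plaque protein, differed by -3.08, NR1H4, the bile acid receptor, by -1.40 and CXCL17, a mucosal chemokine, by -1.39, and their TS/CYTO values lay below their CYTO values. TFB2M, a mitochondrial transcription factor, differed by -0.36 and DYX1C1, a ciliary assembly factor, by -0.61, also without overlap. MCTP1, a membrane protein with C2 domains, overlapped (difference -1.23).

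DUSP1, EGR1, NR4A1 and DDIT4, from the immediate early and stress lists, had lower values in TS/CYTO, as did TSC22D3, TXNIP and APOLD1, which were named after their values were seen. TSC22D3, the glucocorticoid-induced leucine zipper, was at 7.17, 7.33 and 7.51 in CYTO and at 6.29, 6.57 and 6.66 in TS/CYTO. DUSP1, a phosphatase of MAP kinases, was at 5.46, 6.00 and 5.51 against 3.88, 4.68 and 4.19. DDIT4, an inhibitor of mTOR signaling, was at 6.45, 6.71 and 6.88 against 5.88, 6.20 and 5.80. In all 3 genes every TS/CYTO mouse lay below every CYTO mouse. The differences were -0.83, -1.41 and -0.72, each with a limma adjusted p of 1 in the 18 libraries (0.298, 0.504 and 0.298 in the 15). TXNIP, a thioredoxin inhibitor, differed by -0.83 and APOLD1, an endothelial early response gene, by -1.82, both without overlap. The immediate early list had 3 of 18 genes lower without overlap (DUSP1, EGR1 and NR4A1) and 0 higher, against 3.04% and 6.79% of all genes. Its median was -0.04, which was -0.29 without TS/CYTO mouse 29. FOS and JUN overlapped between the arms. With the RNA integrity number as a covariate the differences were -0.67 for ZFP36L2, -0.76 for DUSP1 and -0.73 for TSC22D3.

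Interferon genes were low in CYTO nodes relative to Isotype and slightly higher with TS. Of 18 type I interferon response genes 17 had a positive difference, with a median of 0.33. Without overlap 5 were higher and 0 lower, against 6.79% and 3.04% of all genes. IFIT3, an antiviral RNA-binding cofactor, was at 2.73, 3.09 and 3.00 in CYTO, at 4.28, 3.44 and 3.38 in TS/CYTO and at 5.18, 4.43 and 5.33 in Isotype. The 3 arms did not overlap, with TS/CYTO between the others. The TS/CYTO minus CYTO difference was 0.76 (SE 0.44, limma adjusted p = 1) and CYTO minus Isotype -2.04 (SE 0.44, limma adjusted p = 1). ISG15, a ubiquitin-like modifier, ISG20 and OAS3, enzymes acting on RNA, and IRF7, the factor that amplifies type I interferon, differed by 0.60, 0.59, 0.68 and 0.39, all without overlap. Over the list the CYTO minus Isotype median was -0.91. With the RNA integrity number as a covariate the TS/CYTO minus CYTO median was -0.020 and IRF7 was -0.042, so the direction was lost; without the 3 atypical libraries the covariate left IRF7 at 0.16. All 18 interferon gamma response genes had a positive difference, but only 1 was free of overlap, against 6.79% of all genes, and the median was 0.17. That median was -0.066 with the RNA integrity number as a covariate and 0.35 with array weights, under which the type I median was 0.66.

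All 21 proliferation genes had a positive difference, 7 without overlap against 6.79% of all genes, with a median of 0.40. RRM2, a subunit of ribonucleotide reductase, was at 4.91, 5.51 and 5.09 in CYTO and at 6.16, 5.69 and 5.94 in TS/CYTO, a difference of 0.76 (SE 0.86). CDK1, the mitotic kinase, differed by 0.46. With the RNA integrity number as a covariate the median of the list was -0.032 and CDK1 was -0.032, again with the direction lost, while without the 3 atypical libraries CDK1 stayed at 0.45. The germinal center list had a median of 0.37 with 0 of 12 genes free of overlap.

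Lymphocyte and dendritic cell genes overlapped between the arms with few exceptions. None of 14 T cell genes, 11 naive and central memory T cell genes, 13 cytotoxic genes, 12 regulatory T cell genes or 11 B cell genes was free of overlap in either direction, with medians of -0.06, -0.09, 0.06, 0.03 and 0.05. With log2 tumor volume as a covariate the T cell median was -0.36 and the B cell median -0.46. Of 6 natural killer genes 1 was higher and 1 lower without overlap, against 6.79% and 3.04% of all genes. Cross-presenting dendritic cell genes had a median of -0.14 with 0 of 10 free of overlap, and migratory dendritic cell genes 0.01. In a panel of 31 immune genes 0 were called, 5 were higher without overlap (IGHE, SOCS1, MPO, PDCD1 and S100A8) and 1 was lower (ARG1), against 6.79% and 3.04% of all genes, and 21 lay within 0.5 of no difference. PDCD1, the gene of the PD-1 receptor, was at 2.88, 3.22 and 2.81 in CYTO and at 3.70, 3.23 and 3.65 in TS/CYTO. SOCS1, a feedback inhibitor of cytokine signaling, was at 2.66, 2.81 and 2.70 against 3.65, 3.25 and 3.16, a difference of 0.63. The PDCD1 arms nearly met, at 3.22 and 3.23, and those of SOCS1 did not. ARG1, arginase, was at 1.76, 1.56 and 1.23 against 0.01, 0.43 and 0.01 (difference -1.37, limma adjusted p = 1).

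**Figure D3:**
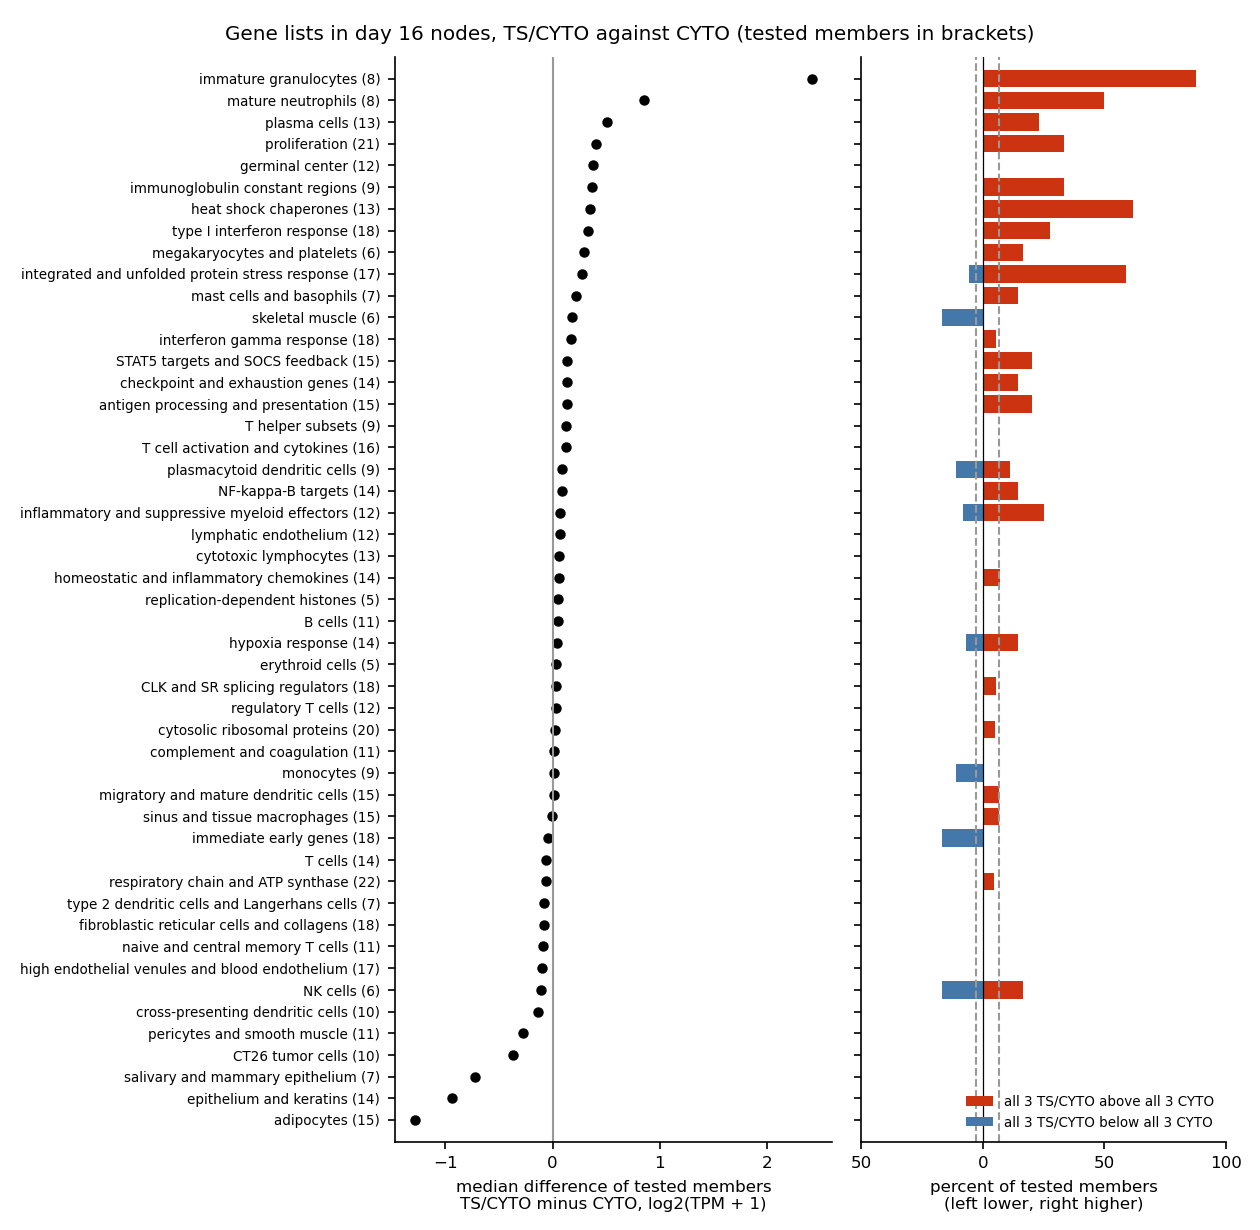
Gene lists in day 16 nodes, TS/CYTO against CYTO, with the number of tested members in brackets. The left panel gives the median difference in log2(TPM + 1), from 2.42 for immature granulocytes to -1.29 for adipocytes. The right panel gives the percent of members whose 3 TS/CYTO values all lie above (right) or below (left) the 3 CYTO values, with dashed lines at the 6.79% and 3.04% of all tested genes.

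Transcripts of fat and epithelium varied widely between the samples. All 15 adipocyte genes had a negative difference (median -1.29), yet none was free of overlap. The summed TPM of the list was 5231, 8795 and 3828 in CYTO and 568, 10763 and 1929 in TS/CYTO. TS/CYTO mouse 29 held more adipocyte RNA than any CYTO mouse, and mouse 28 less than any Isotype mouse. ADIPOQ, adiponectin, was at 7.95, 8.78 and 7.61 against 4.43, 8.85 and 6.46. Epithelial and keratin genes moved with the fat genes, at a summed TPM of 460, 486 and 416 against 63, 1154 and 255. The CT26 tumor cell list did so too, at 461, 609 and 436 against 145, 1291 and 351. MPO and S100A8 were highest in mouse 28, with the least fat RNA of the TS/CYTO mice. Mouse 29, with the most, had more MPO and less S100A8 than mouse 30. Whether these transcripts came from tissue around the node or from tumor cells was not tested, nor was the part of such tissue in the granulocyte values. With the mean of the adipocyte list as a covariate in the 15 libraries, HSPH1, HSPA8 and DYNLL1 passed 5%, at adjusted p = 0.0119, 0.0282 and 0.0282.

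**Figure D4:**
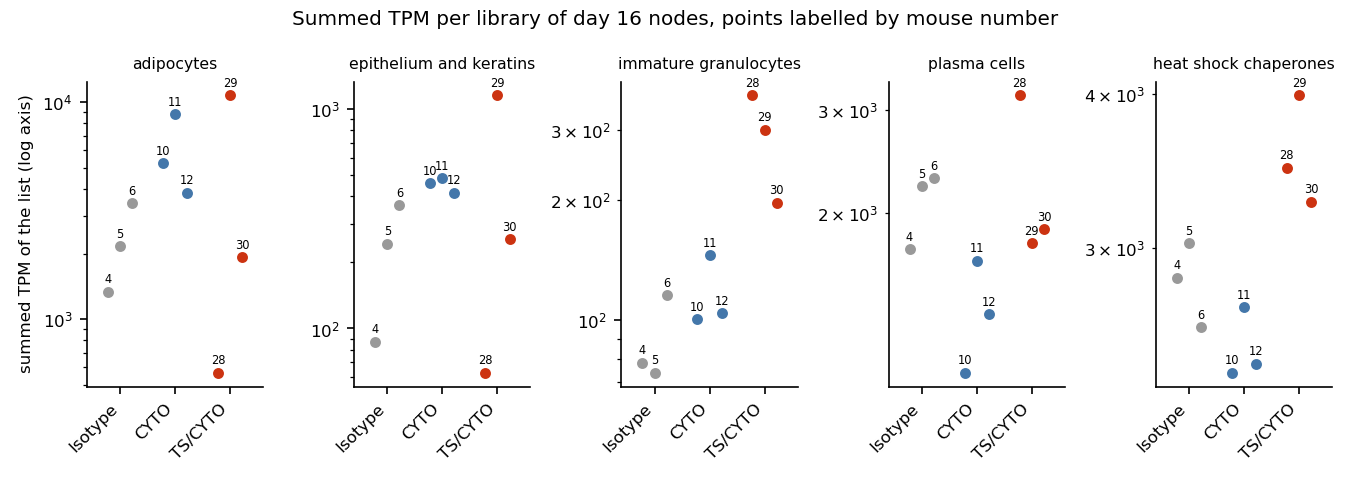
Summed TPM per library (log axes) of the adipocyte, epithelium and keratin, immature granulocyte, plasma cell and heat shock chaperone lists in day 16 nodes, 1 point per mouse labeled by mouse number. Adipocyte and epithelial sums spread widely within TS/CYTO, with mouse 29 highest and mouse 28 lowest, while the chaperone sums of all 3 TS/CYTO mice exceed those of CYTO and Isotype mice.

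Adding PD1 to both arms gave another picture at day 16. TS/PD1/CYTO against PD1/CYTO, from other mice, called 0 genes at 5% over the 18 libraries, with 1389 (11.1%) at an unadjusted p under 0.05, and 1 library of each of these arms stood apart, mouse 22 of PD1/CYTO and mouse 34 of TS/PD1/CYTO. The count was 205 without PD1/CYTO mouse 22 and 382 without TS/PD1/CYTO mouse 34. The median difference of the immature granulocyte list was 0.21 and that of heat shock chaperones -0.36. The mean log2(TPM + 1) of the chaperones was 6.86, 5.82 and 6.23 in PD1/CYTO mice 22, 23 and 24 and 6.67, 6.08 and 6.14 in TS/PD1/CYTO mice 34, 35 and 36. The libraries that stood apart were the highest of each arm, and the remaining mice overlapped. All 3 TS/PD1/CYTO values lay above all PD1/CYTO values for 1.11% of genes and below for 4.77%, and of the 13 chaperones for 0 and 3. MPO was at 0.58, 0.01 and 0.01 with TS/PD1/CYTO and at the floor in all 3 PD1/CYTO nodes, and CAMP was at the floor in all 6. S100A8 was at 0.91, 1.18 and 3.96 against 3.88, 3.11 and 3.2, so the TS/CYTO levels of 7.75 to 9.34 were not seen there. The interaction test, the difference with PD1 minus that without, called 0 genes (558, or 4.47%, at an unadjusted p under 0.05). Its smallest adjusted p was 0.444 for FPR2, at -4.12 (SE 0.69), from -2.10 with PD1 and 2.02 without. For CD177, CTSG and CAMP the interaction was -2.38, -2.76 and -5.06, none past 5%. Mouse 30 was the lowest TS/CYTO mouse for MS4A3 and CTSG, and without it their interaction passed 5% (limma adjusted p = 0.0201 and 0.0395). Leaving out PD1/CYTO mouse 24 called 2 other genes, FPR2 and GPR141, and leaving out any other library of these arms called 0. These calls thus depend on which mouse is left out and decide nothing about PD1. Without the 3 atypical libraries, limma called 3 genes (0.0244%) in this comparison and 3 (0.0244%) in the interaction, and no granulocyte or chaperone gene was among them.

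At day 23 the same arms were sampled in other mice. Limma called 0 of 12203 genes, with 1117 (9.15%) at an unadjusted p under 0.05. That count rested on single libraries, since leaving out TS/CYTO mouse 49 gave 51 calls, 6 higher and 45 lower. All TS/CYTO values lay above all CYTO values for 357 genes (2.93%) and below for 2018 (16.5%). RNA integrity numbers overlapped at this day, at 5.9, 6.5 and 6.2 in TS/CYTO and 7.2, 4.7 and 5.7 in CYTO. Of 12167 genes tested at both days, 46 were higher without overlap at both, which is 5.44% of the 846 of day 16 and 12.9% of the 357 of day 23. Lower without overlap at both were 142 genes, 37.9% of the 375 of day 16 and 7.05% of the 2015 of day 23, against 16.6% of all genes lower at day 23.

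At day 23 granule enzyme genes were at or near the floor in CYTO nodes and low in TS/CYTO nodes, and S100A8 overlapped between the arms. MPO was at 1.08, 0.43 and 1.00 in TS/CYTO and at the floor in all 3 CYTO nodes, and PRTN3 at 1.65, 1.5 and 1.98 against 0.11, 0.07 and 0.01. Both were again free of overlap, at lower levels than at day 16. CAMP was above the floor in 1 of the 6 mice, at 1.25, and S100A8 was at 4.98, 4.83 and 4.34 in TS/CYTO against 5.86, 4.26 and 3.53. The difference of S100A8 was 0.17, and the change of the CAMP difference between days was -4.64 (SE 1.12, limma adjusted p = 1). The test of day called 0 genes, with 100 (0.794%) at an unadjusted p under 0.05.

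The chaperone difference was smaller at day 23 and in the same direction. HSPH1 was at 5.17, 5.08 and 4.92 in CYTO and at 6.00, 5.55 and 5.52 in TS/CYTO, a difference of 0.63 without overlap (limma unadjusted p = 0.00200). DNAJA1 was at 7.01, 7.08 and 6.98 against 7.63, 7.24 and 7.29, a difference of 0.36 without overlap. Of the 13 chaperones 4 were higher without overlap, against 2.93% of all genes at day 23. Of the 4, 3 were so also at day 16, and the median of the list was 0.25. HSPA8 overlapped between the arms (difference 0.29), and the reticulum genes HSPA5 and MANF did not separate (0.04 and 0.07). ATF4 was higher without overlap at both days, by 0.31 and 0.32.

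Several lower genes of day 16 were lower at day 23 too. ZFP36L2 was at 7.35, 7.55 and 7.56 in CYTO and at 6.88, 6.58 and 6.90 in TS/CYTO, a difference of -0.70 (limma unadjusted p = 0.000733). TSC22D3 was at 7.35, 7.64 and 7.64 against 6.88, 6.26 and 7.06, and DUSP1 at 5.19, 5.09 and 5.18 against 4.27, 4.41 and 4.46. None of these overlapped, but 16.5% of all genes were lower without overlap at day 23. Of the 18 immediate early genes 4 were so. TSC22D3 and DUSP1 differed by -0.81 and -0.77, beside -0.63 for DDIT4 and -0.45 for NR4A1. SAMD4A and MND1 did not separate at day 23. The type I interferon list was higher at day 23 by a median of 0.86, with 13 of 18 genes free of overlap, 4 of them at both days. Of all genes 2.93% were higher without overlap at day 23. IFIT3 was at 3.62, 2.83 and 2.94 in CYTO and at 6.15, 4.56 and 4.86 in TS/CYTO, a difference of 2.06 (SE 0.33, limma adjusted p = 0.119). Adipocyte genes, lower in TS/CYTO at day 16, were higher at day 23 by a median of 2.35 with 12 of 14 free of overlap, against that 2.93%. Their summed TPM was 148 to 425 in CYTO and 828 to 1265 in TS/CYTO.

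**Figure D5:**
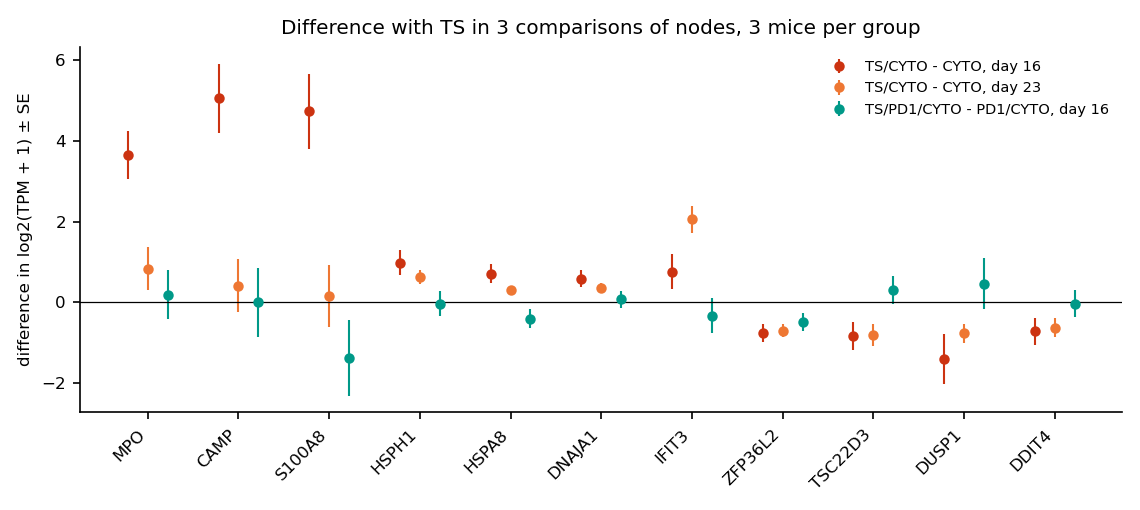
Difference in log2(TPM + 1) with its standard error for 11 genes in 3 comparisons that differ by TS: TS/CYTO minus CYTO at day 16 and at day 23, and TS/PD1/CYTO minus PD1/CYTO at day 16, 3 mice per group. MPO, CAMP and S100A8 have their largest differences at day 16 without PD1, the chaperones are above 0 at both days without PD1, and ZFP36L2 is below 0 in all 3.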

How the data were processed

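Polyadenylated RNA from nodes of CT26-bearing mice was read in pairs from stranded libraries, per the labels' protocols. Reads were written with bcl2fastq 2.20, aligned to mm10 with STAR and quantified with RSEM 1.3.0, per the submitters' processing notes; the annotation release is not given in the sources used here. The authors deposited 1 table of log2(TPM + 1) for 16835 genes in 72 libraries, at 2 decimals with a floor of 0.01. Read depth cannot be recovered from TPM and is unknown, so precision comes from the spread between mice. Genes outside the table held 16.6 to 18.1% of TPM in the 6 libraries compared.

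Tests used limma 3.58.1 under R 4.3.3, with trend and robust options, over all 18 day 16 node libraries in 6 arms, on 12480 genes above the floor in at least 3 libraries, with Benjamini-Hochberg adjustment at 5%. Day 23 was fitted over its own 18 libraries and the test of day over 36. The scripts were tested on simulated data. "Without overlap" means that all 3 values of one arm lie beyond all 3 of the other. Differences on log2(TPM + 1) understate those of low genes and depend on the pseudocount of 1. All nodes are batch 2. All tests are two-sided.

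Named genes are the rises and falls past 5%, filled to 10 in each direction by smallest p, a panel of 31 genes, up to 4 members of each of 50 lists by smallest p, and 3 rises and 3 falls for each other contrast. Members of lists outside that rule were named after their values were seen. Predicted genes and antigen receptor segments were left out. The members, lists and tests were chosen with earlier results of these data known. Gene positions (GENCODE M21, GRCm38) were found for 69 of 70 genes looked up. Alternatives were other scalings, filters, pseudocount, libraries in the fit, covariates, weights and leaving out each library. Plots used matplotlib 3.10.9 under Python 3.11.15.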

Additional observations from a re-analysis of the deposited data

How the results depend on the processing

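The TS/CYTO minus CYTO contrast of day 16, with 0 calls, called 3 genes with a pseudocount of 0.1 (CD177, MS4A3 and NFE2). Of these, NFE2 passed the filter on low values only through TS/CYTO and had to be higher there. A fit on the 6 libraries alone called 2 (SNORA44 and SNORA70). A fit on all 36 nodes called 6 (CD177, CTSG, MPO, CAMP, S100A8 and S100A9). Without limma's trend and robust options 1 was called (CD177), and with array weights 19 (17 higher, 2 lower). Leaving out each library in turn gave 0 to 5, the 5 without TS/CYTO mouse 30 (CD177, CTSG, MPO, ELANE and MS4A3) and 2 without mouse 29 (CD177 and MMP8). Quantile normalization, rescaling of TPM, both other filters and a covariate for RNA integrity or tumor volume gave 0. Alternatives added after seeing the data gave 1 without the 3 libraries that stand apart (HSPH1), 1 with RNA integrity as a further covariate, 3 with the adipocyte mean as a covariate, and 0 to 13 when each library was also left out, the 13 without TS/CYTO mouse 29. The cause was not tested. List members called, from 0, numbered 1, 7 and 13 with the pseudocount of 0.1, the 36 nodes and array weights, 0 to 4 over left-out libraries (0 to 5 without the 3 libraries), and 1, 1 and 2 in the added fits without the 3 libraries. RNA integrity as a covariate turned IRF7 to -0.042 and CDK1 to -0.032.

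TS/CYTO minus Isotype gave 1 call with a pseudocount of 0.1, NFE2, limited by the filter as above. Over left-out libraries it gave 0 to 4 (4 without Isotype mouse 4), and CYTO minus Isotype gave 0 to 1. TS/PD1/CYTO minus PD1/CYTO gave 0 to 1 and its interaction 0 to 2, with 3 and 3 without the 3 libraries that stand apart. Day 23 gave 1 with no filter and 0 to 51, and the test of day 3 and 0 to 1. The RNA integrity difference ranged from 0.733 to 1.28. No paired analysis was possible because the groups compared share no mouse numbers.

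With 3 mice an arm, values at the floor and an unknown depth, small differences of low genes could not be resolved.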
